A study of Mus musculus with 4 samples.

Results

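The myeloid cytokine receptor genes Csf1r, Csf2ra, Csf2rb, Csf2rb2, Csf3r, Il3ra, Il6ra and Il6st were followed in lymphoid-primed multipotent progenitors (LMPPs), early blood progenitors of mouse bone marrow. Every array probe set whose platform symbol was exactly one of these 8 genes was taken, which gave 16 of the 45037 probe sets analysed. The 8 were among 18193 genes with a probe set of their own. One further probe set carried both Csf2rb2 and Csf2rb as its symbols. It fell outside the rule and is given beside them.

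Per the labels, the 2 groups were Lyl1-null LMPPs and wildtype LMPPs, with 2 libraries each, 1 array per library. All mice were of strain C57Bl/6 and 6 to 8 weeks old, with no treatment named. The cells had been sorted for c-Kit, Sca-1 and high Flt3 in the absence of lineage markers. Lyl1 is a transcription factor with a basic helix-loop-helix domain that acts in early blood cells. The libraries titled Lyl1 KO LMPPs1 and Lyl1 KO LMPPs2 are called the libraries labelled KO 1 and KO 2. The sources used here state neither the part of Lyl1 that the null allele removes, nor whether animals were pooled, nor whether libraries of 1 genotype are from different mice. The p-values thus reflect only how far these samples spread, which may be technical variation.

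Colony-stimulating factor receptors carry the signals under which progenitors survive, divide and mature along the granulocyte and monocyte lineages. Csf1r is a receptor tyrosine kinase for M-CSF and IL-34. The receptors for GM-CSF and IL-3 pair a ligand-specific alpha chain (Csf2ra or Il3ra) with a signalling beta chain. Mice have 2 such chains, the common chain Csf2rb, also used by IL-5, and Csf2rb2, which serves IL-3. Csf3r binds G-CSF as a homodimer, while Il6ra binds IL-6 and signals through gp130, the product of Il6st, which several other cytokines share. Csf1r has a kinase domain of its own, whereas the others depend on bound JAK kinases and activate STAT proteins.

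Levels are given per probe set as log2 RMA expression values, and a difference is the mean labelled KO minus the wild-type mean, also in log2. The Lyl1 probe set read 5.14 and 10.32 in the libraries labelled KO 1 and KO 2, against 12.34 and 12.29 in wild type. The library labelled KO 2 thus kept 25.1% of the wild-type Lyl1 signal, which goes against its label. It also read 14.26 for Xist, a transcript of the inactive X chromosome in female cells, against 5.81 to 6.30 in the other 3 libraries. The brighter probe set of the Y-linked gene Eif2s3y read 8.44 in it, against 10.07 to 10.15 in the others. This library thus had signal of both Xist and a Y-linked gene. Its differences from wild type cannot be told apart from a difference in the sex, or mix of sexes, of its cells. It differed at least 2-fold from the other libraries in 1076 to 1922 tested probe sets, while those 3 differed among themselves in 79 to 241. Each result is therefore given for both libraries labelled KO separately. Of the LMPP gate genes, Kit, Flt3, Cd34, Cd48 and Dntt lay above the expression filter in all 4 libraries, and Ly6a was not analysed here. Kit, Flt3, Cd34 and Cd48 were lower in both libraries labelled KO than in both of wild type, with differences of −0.90, −0.49, −0.56 and −1.03, and none of them passed the test. Markers of other cell types were read as summed linear signals. B-lineage markers summed to 2412 and 2060 in the libraries labelled KO, against 1725 and 1721 in wild type. Vpreb1 was the brightest gene of that list, at 10.39 and 10.15 in the libraries labelled KO, against 9.71 and 9.70 in wild type. Cd79a was also higher in both libraries labelled KO (difference 0.36). Cd79b and Ebf1 overlapped between the groups, and Pax5 lay below the filter in every library. Markers of T and NK cells summed to 3735 and 3184 in the libraries labelled KO, against 3000.1 and 2889 in wild type. Nkg7 was the brightest gene of the T and NK list, at 11.66 and 11.42 in the libraries labelled KO, against 11.24 and 11.18 in wild type. Klrd1 and Ccl5 of the same list were lower in both libraries labelled KO than in both of wild type, with differences of −0.76 and −0.68. No marker gene passed the test described next.

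No receptor probe set passed the test between the libraries labelled KO and wild type. The test was limma with Benjamini-Hochberg adjustment at 0.05 over 22519 probe sets whose mean reached the filter, a log2 value of 5.69. Over all of these, 2 passed, or 0.00888%, one for Ctse with a lower and one for Lrmda with a higher value. Lyl1 itself did not pass, with a difference of −4.58 (SE 1.57, limma adjusted p = 0.611). Its readings in the libraries labelled KO lay 5.18 apart. Of the 16 receptor probe sets 14 reached the filter, 0 passed, and their adjusted p-values lay between 0.607 and 0.971. At an unadjusted p under 0.05 there were 3 of these 14, all with lower values in the libraries labelled KO, where 5.6% of all tested probe sets had a lower value at that level. They belonged to the beta chains Csf2rb and Csf2rb2 and to Il6st. Of these, Csf2rb2 reached the filter only through wild type, as its mean in the libraries labelled KO was 5.49.

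Among all 16 receptor probe sets, 13 differences were negative and 3 positive, and with quantile normalization 10 were negative and 6 positive. Of the 14 tested, 13 were negative and 1 positive, against 13365 and 9146 of all 22519 tested probe sets. With quantile normalization the 14 had 10 negative and 4 positive, against 10847 and 11671. The median difference of the 14 tested was −0.27, against −0.07 over all tested probe sets. With quantile normalization it was −0.17, against 0.01. Over all 16 receptor probe sets the medians were −0.25 and −0.16. Both libraries labelled KO lay below both wild-type libraries in 6 of the 14 tested receptor probe sets, against 26.4% of all tested probe sets. They lay above both in 1 of the 14, against 17.4%. That 1 was Il6st 1421239_at, which reached the filter only through the libraries labelled KO, as its wild-type mean was 5.57. The 6 include Csf2rb2, which reached it only through the wild-type libraries. With 2 libraries in each group, an exact permutation test of a single probe set cannot give a two-sided p below 0.333.

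**Figure D1:**
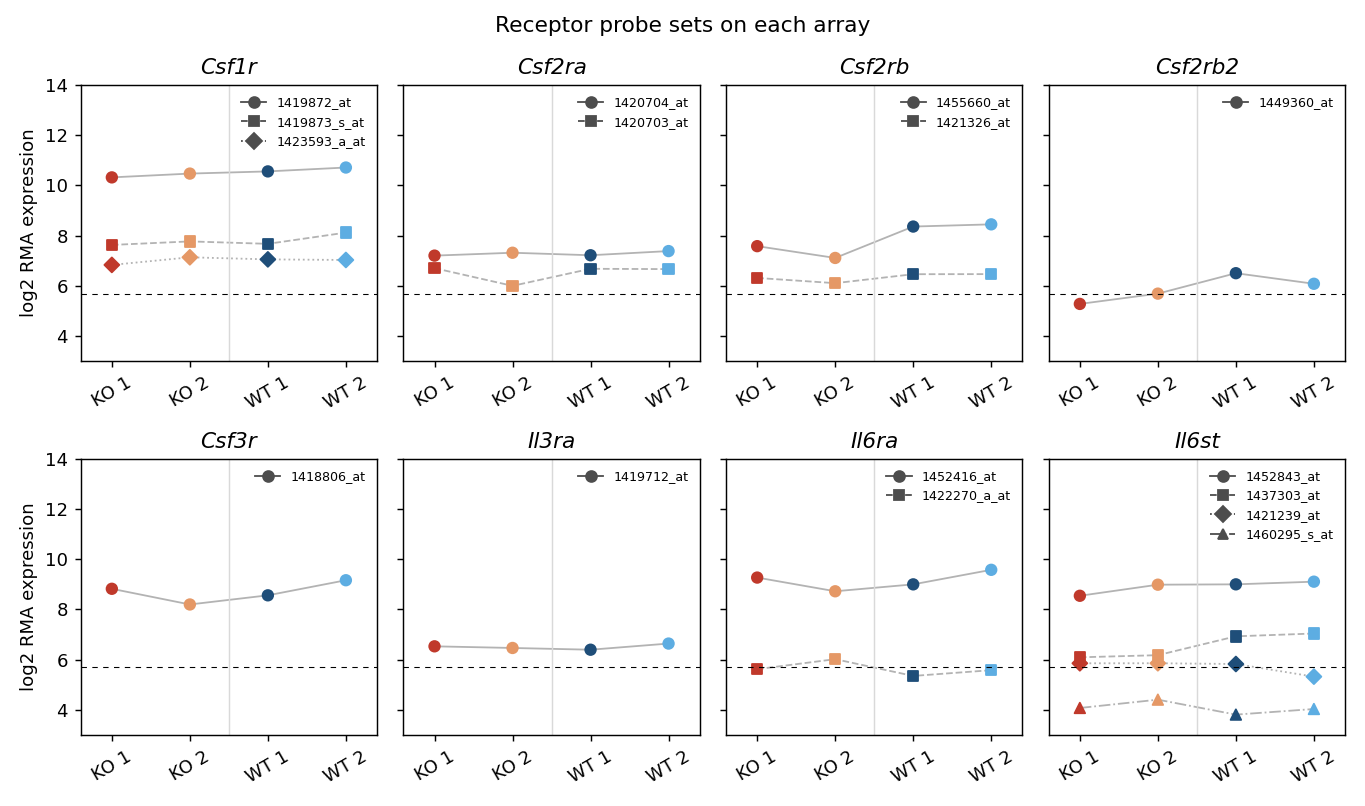
Log2 RMA expression of the 16 receptor probe sets (1 panel per gene, 1 marker shape per probe set) in the 2 libraries labelled KO (left) and the 2 wild-type libraries (right), with the filter of 5.69 as a dashed line. The Csf2rb probe set 1455660_at reads 7.58 and 7.11 on the left and 8.36 and 8.45 on the right, and the lines of Il3ra and of the brighter Csf2ra probe set are nearly level.

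The beta chain Csf2rb had the largest difference among the receptor probe sets. Its probe set 1455660_at read 7.58 and 7.11 in the libraries labelled KO 1 and KO 2, against 8.36 and 8.45 in wild type. Both libraries labelled KO lay below both wild-type libraries, by far more than the 0.09 between the wild-type libraries. The mean was 7.35 ± 0.33 in the libraries labelled KO and 8.40 ± 0.06 in wild type (SD, n = 2 each), which puts those labelled KO at 48.0% of the wild-type signal. The difference was −1.06 (SE 0.21, limma adjusted p = 0.611), and its 95% interval, not adjusted for the number of probe sets, ran from −1.59 to −0.52. Less RNA per cell and fewer cells of an expressing type cannot be told apart in such bulk samples, here or below.

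The size of this difference was not shared by the other Csf2rb probe set. Probe set 1421326_at read 6.32 and 6.11 in the libraries labelled KO, against 6.46 and 6.47 in wild type. The groups did not overlap there either, and the difference was −0.25 (SE 0.17, limma adjusted p = 0.623).

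Csf2rb2, the IL-3 beta chain of the mouse, was read from 1 probe set, 1449360_at. It stood at 5.28 and 5.69 in the libraries labelled KO, against 6.50 and 6.08 in wild type. The groups did not overlap, although the wild-type libraries lay 0.42 apart. The difference was −0.81 (SE 0.24, limma adjusted p = 0.611), with an interval from −1.40 to −0.21. This probe set reached the filter through its wild-type values, since the mean of the libraries labelled KO was 5.49.

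Csf2rb and Csf2rb2 are closely related genes, and their probe sets are uncertain where probes could bind either transcript. In the RefSeq annotation of GRCm38.p6 they are neighbours on chromosome 15, with no protein-coding gene between them. The probe set assigned to both, 1450200_s_at, ran the other way. It read 6.38 and 6.49 in the libraries labelled KO, against 6.01 and 6.15 in wild type, a difference of 0.35 (SE 0.17, limma adjusted p = 0.611). The 3 probe sets assigned to a single one of these genes were thus lower, and the shared one higher, in both libraries labelled KO.

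The ligand-binding chains that pair with these beta chains had 3 probe sets. Il3ra, the IL-3 receptor alpha chain, read 6.53 and 6.46 in the libraries labelled KO, against 6.39 and 6.64 in wild type (1419712_at). The libraries labelled KO lay between the wild-type ones, and the interval of the difference of −0.02 ran from −0.46 to 0.42.

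Csf2ra, the GM-CSF receptor alpha chain, had 2 probe sets. The brighter one, 1420704_at, read 7.20 and 7.32 in the libraries labelled KO, against 7.22 and 7.38 in wild type, with a difference of −0.04 and an interval from −0.46 to 0.38. The other, 1420703_at, read 6.70 in the library labelled KO 1 and 6.00 in the one labelled KO 2, against 6.68 and 6.67 in wild type. Only the library labelled KO 2 stood apart in that probe set, and the difference of −0.32 (SE 0.26) had a limma adjusted p of 0.661.

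Il6st, whose product gp130 is the shared signalling chain of the IL-6 family, had 4 probe sets that went both ways. Probe set 1437303_at read 6.09 and 6.18 in the libraries labelled KO, against 6.93 and 7.04 in wild type. The libraries of each group lay close together, 0.08 apart for those labelled KO and 0.11 apart for wild type, and the groups did not overlap. The signal was 55.5% of wild type, a difference of −0.85 (SE 0.16, limma adjusted p = 0.607), with an interval from −1.26 to −0.44. This probe set had the smallest p of the receptor probe sets, and its difference was −0.89 in the library labelled KO 1 and −0.81 in the one labelled KO 2.

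The brightest Il6st probe set, 1452843_at, read 8.54 and 8.98 in the libraries labelled KO, against 8.997 and 9.10 in wild type. The library labelled KO 1 was low there, while the one labelled KO 2 lay 0.07 below the wild-type mean. The difference was −0.29 (SE 0.21, limma adjusted p = 0.634).

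The remaining Il6st probe sets lay near or below the filter and had positive differences. Probe set 1421239_at read 5.85 and 5.85 in the libraries labelled KO, against 5.82 and 5.32 in wild type, so that its difference of 0.28 (SE 0.22) rested on 1 low wild-type library. It reached the filter through the libraries labelled KO, since its wild-type mean was 5.57. Probe set 1460295_s_at read 4.07 and 4.40 in the libraries labelled KO, against 3.81 and 4.03 in wild type, and was not tested. No single direction therefore describes Il6st on this array.

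Il6ra, which binds IL-6, was read mainly from probe set 1452416_at. It stood at 9.27 and 8.72 in the libraries labelled KO, against 8.996 and 9.57 in wild type. The groups overlapped, the difference was −0.29 (SE 0.29, limma adjusted p = 0.705), and the wild-type libraries alone lay 0.58 apart. A dim probe set, 1422270_a_at, read 5.62 and 6.02 in the libraries labelled KO, against 5.35 and 5.58 in wild type. Its mean of 5.64 was just below the filter, while Il6st 1421239_at was just above it at 5.71.

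Upstream sequence is shown for 3 of these genes: Csf2rb2 and Il6st, each with a probe set lower in both libraries labelled KO, and Il6ra, whose tested probe set overlapped between the groups. Each run is the 250 bases before the gene's start, 5′ to 3′ on the gene's strand, from RefSeq on GRCm38.p6. Capitals mark CANNTG, the E-box bound by basic helix-loop-helix factors, and GATA on either strand (GATA or TATC), the core recognised by GATA factors, partners of such factors in blood cells.
Csf2rb2, chr15:78305722-78305971, minus strand: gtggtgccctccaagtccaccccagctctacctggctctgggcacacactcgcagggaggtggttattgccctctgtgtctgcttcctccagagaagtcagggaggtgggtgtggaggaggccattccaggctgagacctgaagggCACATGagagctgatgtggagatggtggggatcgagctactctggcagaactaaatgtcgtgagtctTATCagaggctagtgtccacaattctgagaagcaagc
Il6st, chr13:112463820-112464069, plus strand: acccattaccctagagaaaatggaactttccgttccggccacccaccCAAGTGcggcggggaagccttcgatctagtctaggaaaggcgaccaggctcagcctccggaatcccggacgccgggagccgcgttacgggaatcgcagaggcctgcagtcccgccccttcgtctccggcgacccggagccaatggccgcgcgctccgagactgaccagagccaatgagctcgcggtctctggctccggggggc
Il6ra, chr3:89913197-89913446, minus strand: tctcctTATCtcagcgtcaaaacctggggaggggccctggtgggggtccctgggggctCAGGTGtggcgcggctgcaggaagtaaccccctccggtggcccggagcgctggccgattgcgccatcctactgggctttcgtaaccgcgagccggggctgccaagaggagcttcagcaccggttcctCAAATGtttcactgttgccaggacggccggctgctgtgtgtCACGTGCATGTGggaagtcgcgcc
The Csf2rb2 window held 1 CANNTG and 1 GATA, the Il6st window 1 CANNTG and no GATA, and the Il6ra window 4 CANNTG and 1 GATA, with no overlap between the motifs. Of the 6 receptor genes with a window in the table, 4 held CANNTG and 3 held GATA. Over all 32851 windows of this length, 66.2% held CANNTG and 53.6% held GATA, so both are common, and a match is a description of the letters only.

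Csf3r, the G-CSF receptor of the neutrophil lineage, read 8.82 and 8.19 in the libraries labelled KO, against 8.56 and 9.16 in wild type (1418806_at). The groups overlapped, and the wild-type libraries lay 0.60 apart, more than the difference of −0.35 (SE 0.31, limma adjusted p = 0.676). The 4 libraries stood in the same order for Csf3r as for the brighter Il6ra probe set, with wild-type replicate 2 highest and the library labelled KO 2 lowest. Beside this, the summed linear signal of 9 neutrophil marker genes was 1924 and 1601 in the libraries labelled KO, against 667 and 486 in wild type. Of these markers 4 reached the filter, and Mmp8 and Cxcr2 lay below it in every library. The part of these markers in the receptor values was not tested.

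Csf1r, the M-CSF receptor, had 3 probe sets. The brightest, 1419872_at, read 10.32 and 10.47 in the libraries labelled KO, against 10.56 and 10.71 in wild type. The groups did not overlap, but the difference of −0.24 (SE 0.17, limma adjusted p = 0.630) was only slightly larger than the 0.15 between the wild-type libraries. Probe set 1419873_s_at read 7.63 and 7.77 in the libraries labelled KO, against 7.67 and 8.12 in wild type, and 1423593_a_at read 6.83 and 7.14, against 7.05 and 7.03 in wild type. In both of these the groups overlapped, with differences of −0.20 and −0.06 as deposited, the second of which was 0.07 with quantile normalization. The summed linear signal of 9 monocyte and macrophage markers was 972 and 1261 in the libraries labelled KO, against 949 and 923 in wild type. Ly86 was the brightest of them, at 8.96 and 9.53 in the libraries labelled KO, against 8.88 and 8.85 in wild type. Fcgr1, Ccr2, Cd14 and Ms4a7 were also higher in both libraries labelled KO. Cd68 was lower in both than in both of wild type (difference −0.28), and Adgre1, Itgam and Cx3cr1 overlapped. The defining markers Adgre1, Itgam, Cd14 and Ms4a7 were below the filter in every library.

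**Figure D2:**
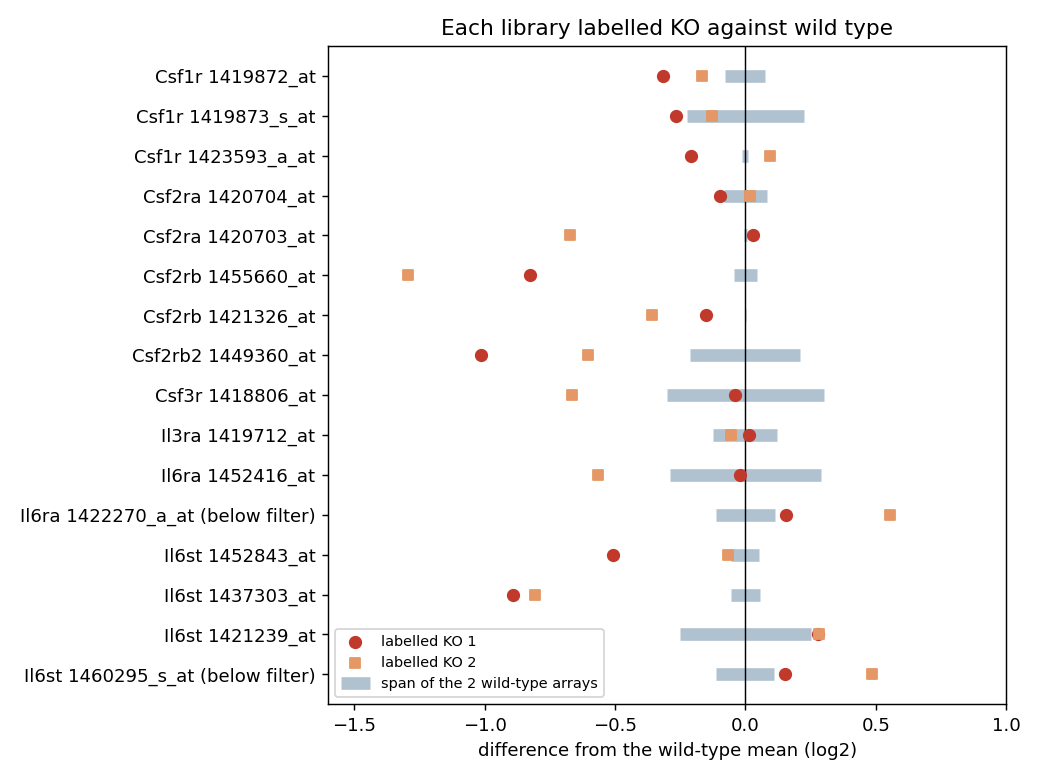
Each library labelled KO as its difference from the wild-type mean (log2), for the 16 receptor probe sets, with the span of the 2 wild-type libraries as a bar. Both points lie left of the bar for 6 probe sets, among them both of Csf2rb, that of Csf2rb2 and Il6st 1437303_at, whereas for Csf3r and Il6ra 1452416_at KO 1 lies within the bar and KO 2 to its left.

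The libraries labelled KO differed from each other in which receptors were low. The library labelled KO 1 had its lowest reading relative to wild type at Csf2rb2, −1.01, and was within 0.05 of the wild-type mean for Csf3r, Il3ra, Il6ra 1452416_at and Csf2ra 1420703_at. The library labelled KO 2 had its lowest at Csf2rb 1455660_at, −1.29, and read −0.66 for Csf3r, −0.56 for Il6ra 1452416_at and −0.67 for Csf2ra 1420703_at.

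Fits that left out 1 of these libraries gave different calls. Without the library labelled KO 2, 0 receptor probe sets passed in limma, with 4 at an unadjusted p under 0.05, and 0.0488% of all tested probe sets passed. The Csf2rb 1455660_at difference was then −0.82 (adjusted p = 0.455), that of Csf2rb2 −1.01 (adjusted p = 0.523) and that of Il6st 1437303_at −0.89 (adjusted p = 0.417). Without the library labelled KO 1, 2 of the 14 receptor probe sets passed, Csf2rb 1455660_at (−1.29, limma adjusted p = 0.0259) and Il6st 1437303_at (−0.81, limma adjusted p = 0.0451). In that fit 10.1% of all tested probe sets passed, so 2 of 14 is near the share over the whole array. Each of these fits leaves a single library labelled KO, which is assumed to vary as the wild-type libraries do.

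**Figure D3:**
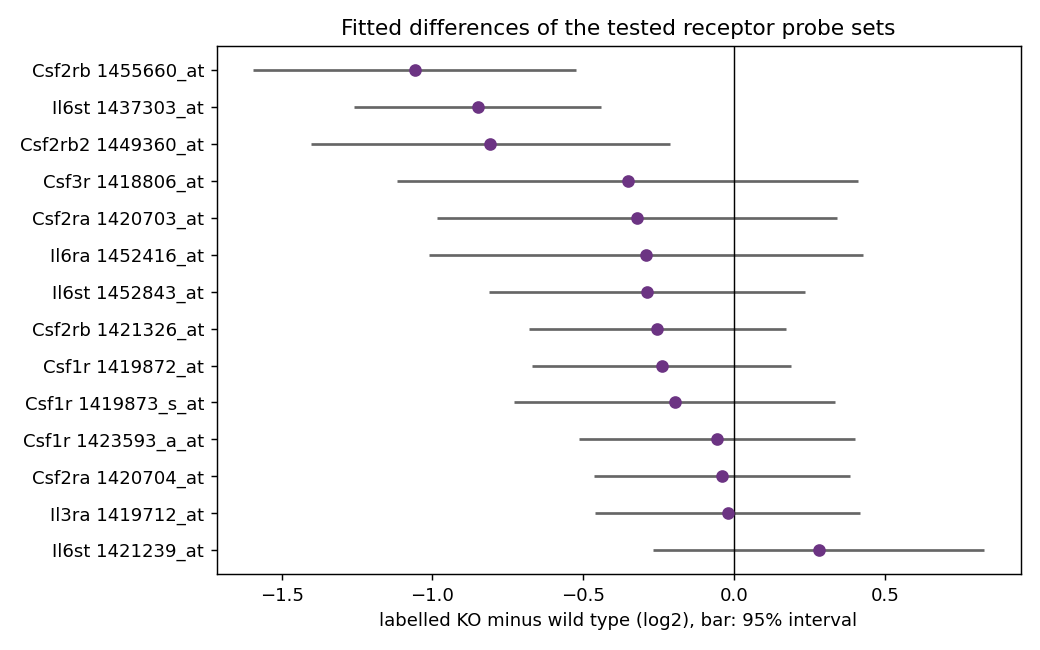
Fitted difference, libraries labelled KO minus wild type (log2), of the 14 tested receptor probe sets, with 95% intervals from limma's moderated variance, not adjusted for multiple testing. The intervals of Csf2rb 1455660_at (−1.59 to −0.52), Il6st 1437303_at (−1.26 to −0.44) and Csf2rb2 (−1.40 to −0.21) lie below 0, and all others include it.

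The genes whose pattern was most like that of Csf2rb were Cd48, a SLAM family surface protein, Gpx7 and Tpm4, a tropomyosin. Likeness was the Euclidean distance to Csf2rb 1455660_at over the 4 libraries, after subtracting each gene's wild-type mean, among 11196 genes. The distances were 0.103 for Cd48, 0.105 for Gpx7 and 0.125 for Tpm4. Cd48 read 8.35 and 8.00 in the libraries labelled KO, against 9.13 and 9.28 in wild type.

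The rest of the pathway was read from the brightest probe set of each gene, and no gene of the 6 lists below passed the test. Over all 11196 genes read and tested in this way, 6374 differences were negative and 4818 positive. The sign counts of the lists stand beside that share. With quantile normalization, 10847 differences were negative and 11671 positive over all tested probe sets. Of 13 ligands of these and other gp130 receptors, 8 lay below the filter, among them Csf2, Csf3, Il3 and Il6, and Cntf was not analysed here. Of the 4 tested, 2 differences were positive and 2 negative. Csf1, the M-CSF gene, read 6.85 and 7.18 in the libraries labelled KO, against 6.62 and 6.70 in wild type, and Ctf1, cardiotrophin, had a difference of 0.19.

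Of 6 tested related receptors, 5 had negative differences and 1 a positive one, or 4 and 2 with quantile normalization. The stem cell factor receptor Kit read −0.90 (SE 0.24) and Flt3 −0.49 (SE 0.24), both markers on which the cells were sorted. Among 15 genes of receptor-proximal signalling, 10 differences were negative and 5 positive, or 8 and 7 with quantile normalization. The adaptor Sh2b3, which restrains cytokine receptor signalling, read −0.51 (SE 0.16) and the PI3-kinase subunit Pik3cd 0.40 (SE 0.17).

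Cytokine-induced STAT targets and feedback genes had 7 positive and 4 negative differences among 11 tested, with a median of 0.09. Their median was 0.14 with quantile normalization and 0.01 with median centring, beside 0.01 and −0.14 over all tested probe sets. Socs2 and Cish, both feedback inhibitors induced through STAT5, went opposite ways. Socs2 read 7.36 and 6.86 in the libraries labelled KO, against 6.32 and 6.70 in wild type, a difference of 0.60 (SE 0.25). Cish read 9.13 and 8.53 in the libraries labelled KO, against 9.24 and 9.38 in wild type, and its difference was −0.48 (SE 0.24).

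Transcription factors of myeloid receptor genes had 9 negative and 2 positive differences among 11 tested, or 8 and 3 with quantile normalization. The repressor Gfi1 read −0.68 (SE 0.20) and Cebpd −0.73 (SE 0.28). Myeloid progenitor genes had 5 negative and 4 positive differences among 9, or 4 and 5 with quantile normalization. The granule protease gene Ctsg read −0.53 (SE 0.20) and the myeloperoxidase gene Mpo −1.01 (SE 0.31). The list medians were 0.07 for ligands, −0.25 for related receptors, −0.12 for signalling, −0.18 for transcription factors and −0.02 for myeloid progenitor genes, beside −0.05 over all 11196 genes. With quantile normalization they were 0.21 for ligands, −0.16 for related receptors, −0.00047 for signalling, −0.06 for transcription factors and 0.03 for myeloid progenitor genes, beside 0.01 over all tested probe sets. With median centring the ligand median was −0.0045 and that of myeloid progenitor genes −0.10, beside −0.14 over all tested probe sets.

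The library labelled KO 2 differed from the wild-type mean by −1.20 for Kit, −1.45 for Stat5b, −0.96 for Inpp5d and −0.78 for Cish. It differed by −1.08 for Cebpd, −1.36 for Mpo and 0.99 for Runx1. The fit without the library labelled KO 1 called these genes, and they were named after their values were seen. That fit leaves a single library labelled KO, so they are no result about the lists. Over all 11196 genes, the library labelled KO 2 lay below both wild-type libraries in 5584 and above both in 4055.

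**Figure D4:**
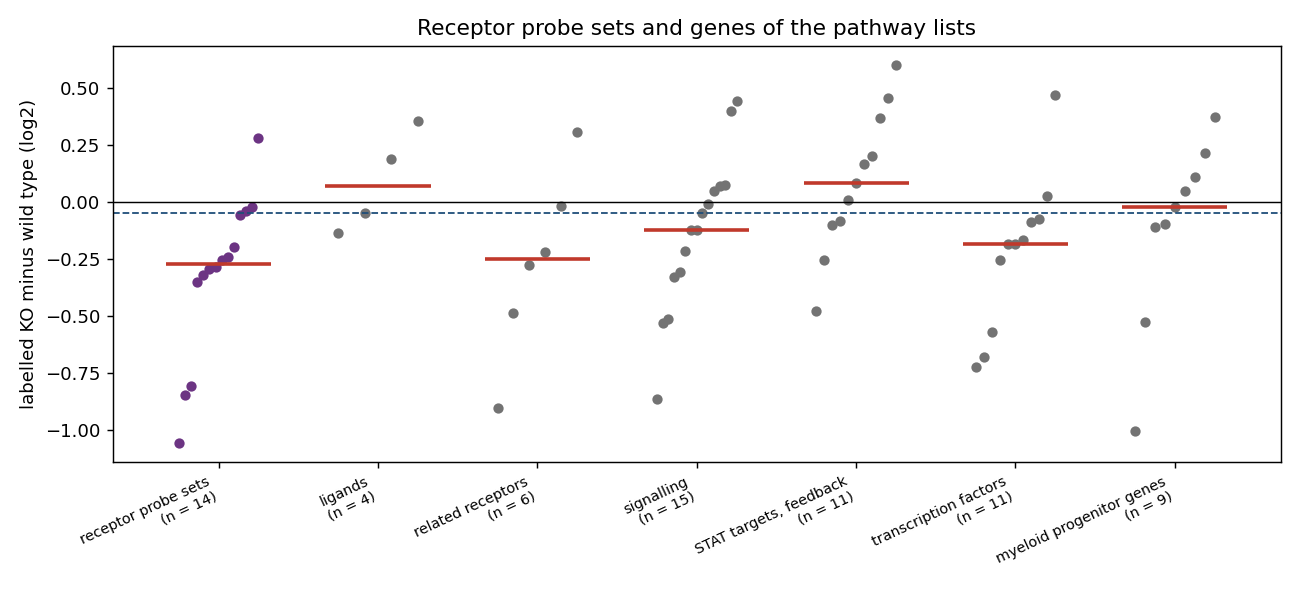
Difference, libraries labelled KO minus wild type (log2), of the 14 tested receptor probe sets and of the tested genes of 6 pathway lists, 1 point each, with the median of each set as a bar and the median of all 11196 genes (−0.05) as a dashed line. The receptor points reach from −1.06 to 0.28, and their median of −0.27 lies close to that of the related receptors, −0.25.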

How the data were processed

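Per the labels, amplified and biotin-labelled RNA of 4 libraries went onto 1 array each. The authors deposited log2 values summarised by RMA, as named in the submitters' processing notes. The sources used here give neither its version nor whether other arrays were normalized with these. Values were used as deposited. The number of arrays limits the precision.

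Gene symbols came from the platform annotation: 34945 of 45037 probe sets had 1 symbol, 932 several and 9160 none. All 8 receptor gene identifiers matched RefSeq genes. Probe sets with a mean over the 4 libraries of at least the median of all means, 5.69, were tested in limma 3.58.1 under R 4.3.3 (lmFit, eBayes, two-sided, Benjamini-Hochberg at 0.05). Pathway genes were represented by their brightest probe set on average, and the text names the 2 of each list with the smallest p, besides the receptors. The receptors and lists were chosen with earlier results of these data known. Summed marker signals add values taken off the log scale.

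In simulated data of 22519 probe sets with 200 changed, in 5 runs, the test called 3.2% of 2-fold, 82.4% of 4-fold and 94.8% of 8-fold changes. The simulated libraries of a probe set all had the same spread, and none stood apart as the library labelled KO 2 did. These shares may therefore not hold for the data here. Alternatives covered the filter, rows, scaling, prior, array weights, threshold, a block for the replicate number, and leaving out each library.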

Additional observations from a re-analysis of the deposited data

How the results depend on the processing

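The count of 2 probe sets past the limma threshold was 1 with the filter at the 70th percentile, 1 with 1 probe set per gene, 1 with median centring, 10 with array weights, 8 at an adjusted p of 0.10 and 0 with the mean of probe sets per gene, where 736 genes had an unadjusted p under 0.05. Leaving out 1 library gave between 0 and 2269. The 0 arose when wild-type replicate 1 (435 at an unadjusted p under 0.05) or wild-type replicate 2 (389) was left out, and the 2269 without the library labelled KO 1. The count of receptor probe sets past the threshold was 0 to 2 over the fits that left out 1 library, with 2 without the library labelled KO 1, and 0 in each of the other 15 alternatives (limma, with 2 to 4 at an unadjusted p under 0.05, or 1 with the filter at the 70th percentile).

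Signs turned with quantile normalization for Csf1r 1423593_a_at (0.067), Csf2ra 1420704_at (0.10) and Il3ra (0.016), and with the mean of probe sets for Il6ra (0.031). Over the fits that left out 1 library, signs turned for Csf1r 1419873_s_at (−0.42 to 0.027), Csf1r 1423593_a_at (−0.21 to 0.095), Csf2ra 1420704_at (−0.12 to 0.042), Csf2ra 1420703_at (−0.67 to 0.031) and Il3ra (−0.14 to 0.10). The cause was not tested. Csf2rb 1455660_at ranged from −1.29 to −0.82 over its 15 alternatives and Il6st 1437303_at from −0.92 to −0.79 over its 13. The mean of both Csf2rb probe sets had a difference of −0.66.

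With the replicate number as a block, 3 probe sets and 0 receptor probe sets passed. Libraries with the same number deviated from their group means with a correlation of −0.38. With 2 libraries a group, the crossed pairing has the same value with the sign turned. Whether the numbers pair the samples therefore cannot be told from it. A crossed block, added after the data had been seen, gave 2 and 0. It had 2950 probe sets at an unadjusted limma p under 0.05, against 1664 without a block and 891 with the replicate number. At 2 libraries a group, differences near 2-fold are mostly below what the test can call.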
